A study of Mus musculus with 2 samples.

Results

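The largest odorant receptor gene cluster of the mouse genome, on chromosome 2, was set against the chromatin boundaries of olfactory sensory neurons. Its members were all protein-coding genes of GENCODE release M21 whose symbol is Olfr plus digits, with -ps names kept, between the outer ends of Olfr987 and Olfr1274-ps (GRCm38, chr2:85330779-90403897). They numbered 227 of the 1134 protein-coding receptor genes (20.02%) and of 21755 protein-coding genes in all, and no filter removed any. The rule used annotation and position alone, not the boundaries. The nearest receptor genes beyond its limits were Olfr368, 48.0 Mb to the left, and Olfr1275, 20.8 Mb to the right. Their TSSs lay 25.99 kb and 208 kb from a boundary.

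The data came from in situ Hi-C, which joins and sequences DNA ends that are neighbours in fixed nuclei. There was 1 group of 2 biological replicates, of 170000 and 220000 cells, from the olfactory epithelium of adult mice, strain 129P2/OlaHsd, mixed in sex. The cells were mature olfactory sensory neurons that express Olfr1507 (MOR28), sorted by fluorescence from MOR28-GFP mice, fixed in 1% formaldehyde and cut with DpnII. The labels list no treatment, so no control group exists. The authors combined both replicates before they called boundaries, so no value below has a replicate error and no test over samples could be made. Every comparison is therefore a description of 1 list, and its read depth is unknown. A boundary list holds no expression, so the label of the cells could not be checked against marker genes.

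Boundaries part neighbouring chromatin domains, as contacts between their left and right sides are rare. Odorant receptors are G protein-coupled receptors that bind odorants at the cilia of these neurons, and each mature neuron expresses a single receptor gene, from a single allele. The silent receptor genes are known to be packed in heterochromatin and to gather in few nuclear foci, while intergenic enhancers bound by Lhx2 and Ebf with the adaptor Ldb1 meet around the chosen gene. Olfr1507 lies on chromosome 14 and is no member of the chromosome 2 cluster. Fish-like class I receptors are encoded in 1 cluster on chromosome 7, and the chromosome 2 cluster holds class II receptors.

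The cluster spans 5.07 Mb and held 8 boundaries, of which 1 was strong. The strong share was thus 12.5% (95% Wilson interval 2.24 to 47.1) in the cluster, against 59.1% (55.0 to 63.2) in the rest of chromosome 2 and 55.0% of all 7367 boundaries of the list. Boundary density was 1.58 per Mb in the cluster and 3.16 per Mb in the rest of the chromosome, a ratio of 0.499 (0.251 to 0.989 from the Wilson interval of the cluster's share of the 556 boundaries). At the density of the rest of the chromosome the same length would hold 16.0 boundaries, 9.49 of them strong. These intervals and all those below cover counting error only.

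Strength, the authors' own score, was 1.39 at the first boundary from the left, and then 0.383, 0.290, 0.249, 0.312, 0.429, 0.248 and 0.2501 along the cluster. The first of these stood at the 88.4th percentile of all boundaries, and the other 7 between the 12.2th and the 38.2th. The median was 0.301 in the cluster, 0.378 in the other 32 receptor clusters (52 boundaries) and 0.592 in the rest of chromosome 2 (548 boundaries). The 7 weak boundaries had a median of 0.290, near the 0.305 of all weak boundaries. The weak boundaries of the cluster, 4 of 7 of them below the median of their class, thus spanned a range common in the list.

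**Figure D1:**
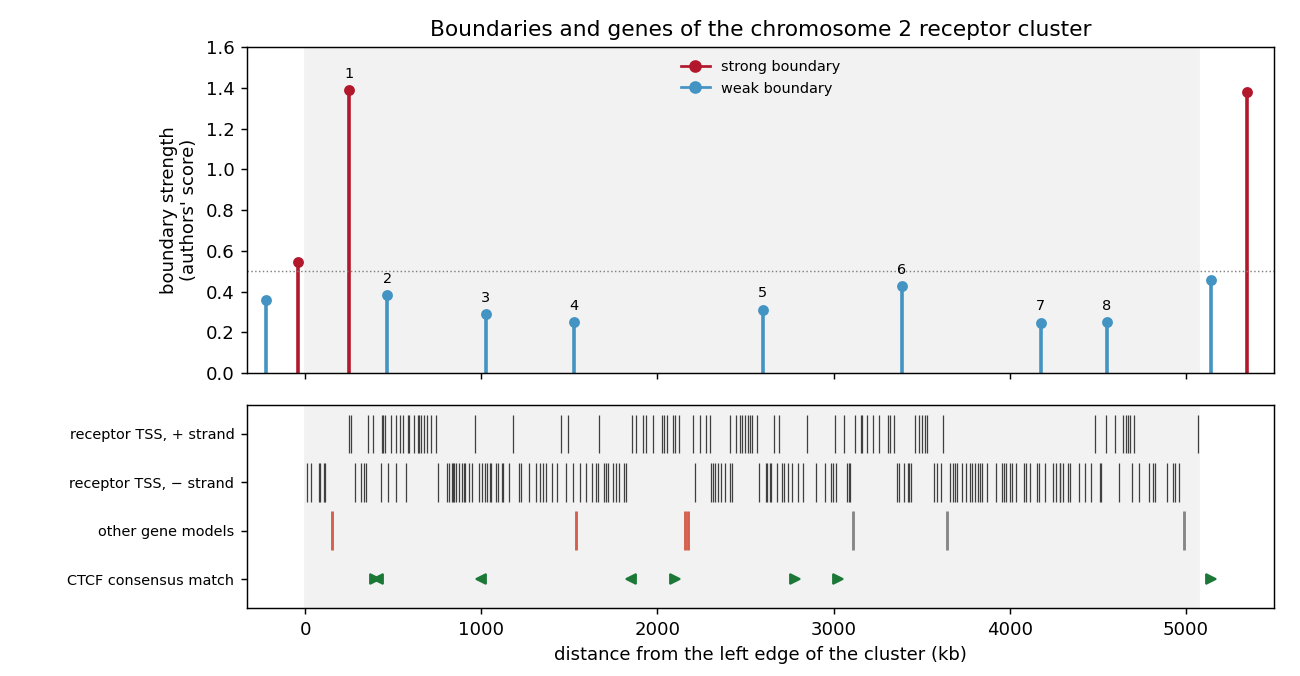
Boundary strength (authors' score, upper panel) and positions of genes and CTCF consensus matches (lower panel) against distance from the left edge of the cluster in kb. Grey shading marks the cluster, numbers the 8 boundaries inside it, the dotted line the class limit of 0.5, arrowheads the strand of a match, red ticks non-receptor models and grey ticks models that RefSeq names as receptors; the strong boundary, at 1.39, lies close to the left end.

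**Figure D2:**
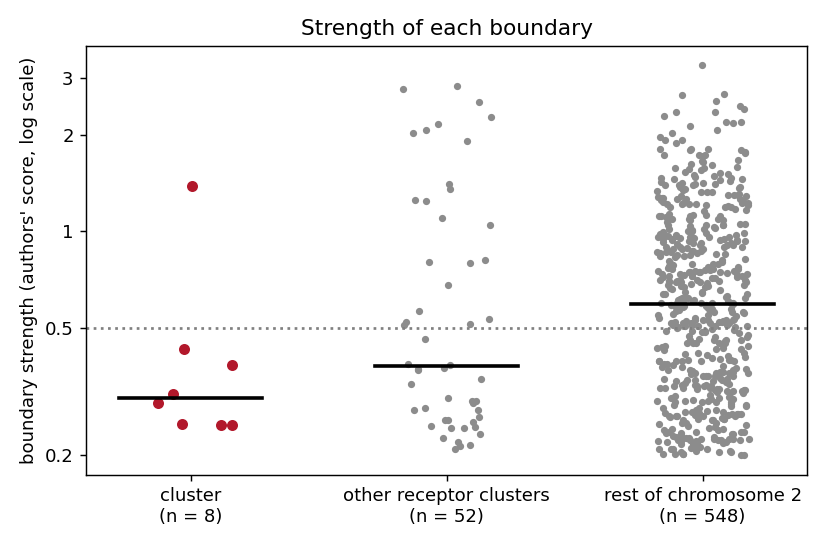
Strength of each boundary (authors' score, log scale) in the cluster, in the other 32 receptor clusters and in the rest of chromosome 2, with black bars at the medians of 0.301, 0.378 and 0.592. Of the 8 points of the cluster 1 lies above the class limit of 0.5, drawn dotted.

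The single strong boundary, at chr2:85575001-85580000, lay at the widest gap of the cluster. Across it the TSSs of Olfr995 and Olfr996 were 136 kb apart, the first of 226 neighbouring gaps by width, against a median gap of 19.3 kb (quartiles 12.2 and 27.7). The boundary sat at the right end of this gap, where its midpoint was 134 kb from the Olfr995 TSS and 1.71 kb from that of Olfr996. It overlapped coding sequence of Olfr996, a gene on the forward strand at chr2:85579215-85580282. To its left were 6 receptor genes, Olfr987 to Olfr995, all on the reverse strand and all of receptor family MOR203. MOR names group mouse receptors by similarity of their proteins. To its right began family MOR175 with Olfr996, and the proteins of Olfr995 and Olfr996 shared 45.5% of their residues.

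The 250 bases before the annotated TSS of Olfr996 lay wholly inside the strong boundary interval, and are shown for that reason (forward strand, chr2:85578965-85579214). Annotated starts were not checked against transcripts, so this stretch is not shown to be the promoter in use. The 250 bases held none of the 3 motifs counted further below, which would stand in capitals.
Olfr996: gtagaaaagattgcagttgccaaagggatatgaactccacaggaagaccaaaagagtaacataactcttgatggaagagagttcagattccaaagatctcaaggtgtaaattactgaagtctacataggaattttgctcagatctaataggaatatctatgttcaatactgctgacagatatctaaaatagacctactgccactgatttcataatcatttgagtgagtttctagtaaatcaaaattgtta

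The other 7 boundaries were all weak. The gaps at boundaries 2 and 3 were close to the median or at the lower quartile of all gaps, and those at boundaries 4 to 8 were wider than the upper quartile of 27.7 kb. Boundary 2, at chr2:85795001-85800000, parted Olfr1015 from Olfr1016, both of family MOR213, with TSSs 20.5 kb apart, and overlapped coding sequence of Olfr1016. Boundary 3, at chr2:86355001-86360000, parted Olfr1055 from Olfr1056, both of MOR186, in a gap of 12.2 kb. It overlapped coding sequence of Olfr1056. Boundary 4, at chr2:86855001-86860000, lay between Olfr1095 of MOR179 and Olfr1097 of MOR206, in a gap of 40.5 kb, and overlapped no gene. This was the boundary nearest to Gm13723, an unnamed gene model 17.3 kb away.

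Boundary 5, at chr2:87925001-87930000, parted Olfr1154 (MOR173) from Olfr1155 (MOR174) in a gap of 40.0 kb. Boundary 6, at chr2:88715001-88720000, parted Olfr1196 from Olfr1197, both MOR225, in a gap of 27.8 kb, and at 0.429 was the strongest of the weak boundaries. The proteins of this pair shared 95.9% of their residues, and each was the other's closest relative in the cluster. Boundary 7, at chr2:89505001-89510000, parted Olfr1242 from Olfr1243, both MOR231, with 92.5% identity, in a gap of 33.2 kb. Boundaries 5, 6 and 7 overlapped no gene. Boundary 8, at chr2:89880001-89885000, parted Olfr1257 from Olfr1258, both MOR232, with 84.8% identity, in a gap of 48.9 kb, and overlapped coding sequence of Olfr1257. Of the 10 widest gaps in the cluster, 2 held a boundary, those after Olfr995 and after Olfr1257.

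The sequence of the boundary intervals varied. Unique 32-base sequences, a stand-in for how well reads can be placed, made up 30% of boundary 5 and 45% of boundary 7, and at least 75% of the other 6. Repeats covered 66.8% and 89.0% of those 2 intervals. Over the whole cluster 72.1% of sampled 32-base sequences were unique, against 86.5% in the rest of chromosome 2. Repeats made up 47.8% of the cluster against 31.7%, and GC content was 37.1% against 42.2%. Per Mb of unique sequence the density ratio was 0.598. Further, the cluster had 1.38 TSSs of other protein-coding genes per Mb, 3 of these 7 models with receptor names in RefSeq. The rest of the chromosome had 8.90 per Mb. The part of these differences in the low boundary density was not tested.

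Boundaries lay outside both edges of the cluster. On the left a boundary of strength 0.547, just past the class limit, stood at chr2:85285001-85290000, 43.3 kb outside the cluster end. On the right a weak boundary of 0.458 at chr2:90470001-90475000 stood 68.6 kb outside. Of the pair of edges the left one had a boundary within 50 kb and the right one had not. Among the 66 edges of all 33 receptor clusters, this pair included, 57.6% had one. The left boundary overlapped no gene and lay between the cluster and Lrrc55. This gene encodes an auxiliary subunit of potassium channels and has its TSS 134 kb from the cluster. Beyond Lrrc55 lay Aplnr, the gene of the apelin receptor, and Tnks1bp1, which encodes a tankyrase-binding protein. On the right the boundary lay in Ptprj, the gene of a receptor tyrosine phosphatase on the reverse strand. The end of Ptprj lay 25.9 kb from the cluster, and its TSS lay past the boundary. Only the end part of Ptprj thus shared an interval with the last receptor genes.

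The next boundary on the right was strong, at 1.38, and lay at the start of Nup160, whose TSS was 0.286 kb from its midpoint and which encodes a nuclear pore protein. The neighbour after Nup160 was Fnbp4, 341 kb from the cluster. Flanking sequence had 4.0 boundaries per Mb in the 1 Mb on either side, 3 of 4 strong on the left and 2 of 4 on the right. The same flanks held 26 and 20 TSSs of other protein-coding genes.

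The 8 boundaries and the 2 outside the edges enclosed 9 intervals, with a median of 22 receptor genes each. From left to right they held 6, 12, 34, 22, 48, 35, 38, 15 and 17 receptor genes. Their lengths in the same order were 290, 220, 560, 500, 1070, 790, 790, 375 and 590 kb. Over all 7347 intervals of the list the median was 265 kb (quartiles 185 and 405). Of the 9 intervals 8 were longer than that median and 6 longer than the upper quartile, and those 6 held 194 of the 227 genes.

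The fifth interval, from Olfr1097 to Olfr1154, held 48 receptor genes in 1070 kb, the highest number of all 7347 intervals. It stood at the 97.7th percentile by length. The next in number were 2 intervals of 42 genes, on chromosomes 7 and 19, followed by the seventh interval of the cluster, from Olfr1197 to Olfr1242, with 38. The median over the 108 intervals with at least 1 receptor gene was 8. Packing ranged from 20.7 receptor genes per Mb in the first interval to 60.7 in the third, from Olfr1016 to Olfr1055. With strong boundaries alone, 221 of the 227 genes, Olfr996 to Olfr1274-ps, lay in a single interval of 5100 kb. This was at the 99.8th percentile of the 4032 strong intervals, against a median of 400 kb. Of these, 10 were at least as long, this one included.

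**Figure D3:**
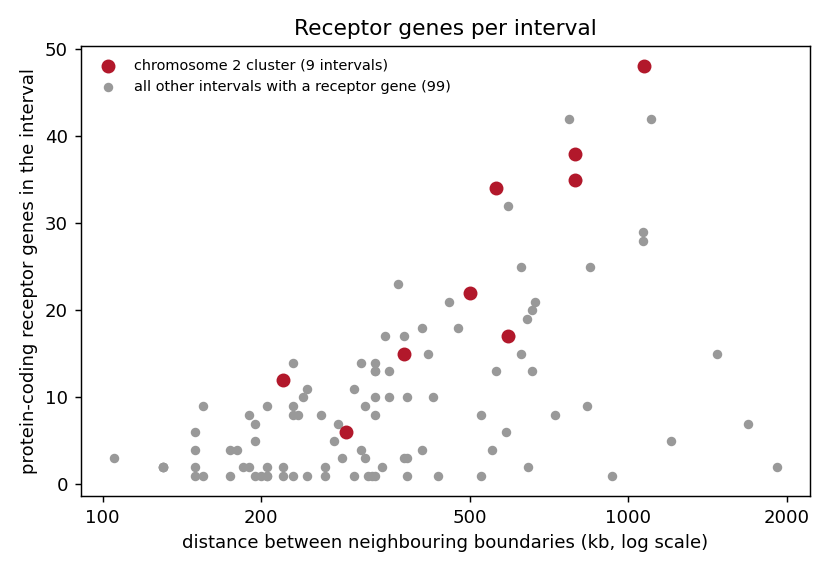
Protein-coding receptor genes in an interval against the distance between its boundaries (kb, log scale), for the 9 intervals of the cluster (red) and the other intervals that hold at least 1 receptor gene (grey). The interval with 48 genes and 1070 kb is the highest point.

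The annotation put 60 further Olfr models that are not protein-coding in the cluster, of which 45 were unprocessed pseudogenes and 12 polymorphic pseudogenes. The fourth interval had the most, 16 beside its 22 protein-coding genes, and the eighth the fewest, 1 beside 15. Of the members 148 were on the reverse strand and 79 on the forward strand, in 56 runs of 1 strand. The longest run, 36 genes on the reverse strand from Olfr1214 to Olfr1254, passed through boundary 7. Neighbours parted by a boundary shared a strand in 6 of 8 cases (75%, Wilson interval 40.9 to 92.9), and neighbours not parted in 165 of 218 (75.7%, 69.6 to 80.9).

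Few other genes lay among the receptors. The annotation listed 7 protein-coding models without an Olfr symbol, and RefSeq gave 3 of them receptor names. They were Gm13757 (Olfr1182), Gm13762 (Olfr1213) and Gm13769 (Olfr1565). The other 4 were 4833423E24Rik, Gm13723, Pramel7 and Pramel6. RefSeq names 4833423E24Rik as Fads2b, a symbol of the fatty acid desaturase family. It lay at chr2:85483594-85519024, in the gap between Olfr995 and Olfr996, so that it shared the first interval with the MOR203 receptors. Its TSS was 58.5 kb from the strong boundary. Pramel7 and Pramel6 belong to the PRAME-like family, and Pramel7 is known in mouse from early embryos and pluripotent cells. Both lay in the fifth interval, at chr2:87489087-87497093 and chr2:87506565-87510872, and their TSSs were 430 kb and 421 kb from the nearest boundary. None of the 7 models had its TSS in a boundary window, which here means a called interval with 10 kb added left and right of it.

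TSSs of receptor genes seldom lay at boundaries. In a window were 8 of 227 members (3.52%, Wilson interval 1.80 to 6.80), against 13.0% of all 21755 protein-coding genes. The share was 6.50% (5.08 to 8.30) for the other 907 receptor genes and 15.1% (13.4 to 16.9) for other protein-coding genes of chromosome 2. At strong boundaries were 2 members, Olfr996 and Olfr998, 0.881% against 8.39% of all protein-coding genes. The interval of the members' share thus overlapped that of other receptor genes and not that of other genes. Neighbouring genes are not independent, however, and the differences were not tested. Fewer boundaries also leave fewer windows that a TSS can fall in. The cluster had 1.58 boundaries per Mb and the rest of chromosome 2 had 3.16, and the part of this density in the shares was not tested.

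The 8 members were Olfr996 (1.71 kb from the midpoint), Olfr998 (11.4 kb), Olfr1016 (5.04 kb), Olfr1055 (7.22 kb), Olfr1056 (4.97 kb), Olfr1095 (5.80 kb), Olfr1242 (9.17 kb) and Olfr1257 (4.06 kb). Olfr1055 and Olfr1056 shared boundary 3, and Olfr996 and Olfr998 shared boundary 1. No receptor TSS lay in the windows of boundaries 5 and 6. The median member was 144 kb from the nearest boundary (quartiles 74.4 and 239), against 108 kb for other receptor genes and 61.1 kb for all protein-coding genes. More than 100 kb from a boundary were 148 of 227 members (65.2%), against 28.6% of all protein-coding genes. The low boundary density of the cluster bears on these distances as well, and its part was not tested. The farthest was Olfr1122, in the fifth interval, at 528 kb.

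The 8 boundaries at 1.58 per Mb, 1 of them strong, were set against the clusters next in gene number. The class I cluster on chromosome 7 had 129 genes and 8 boundaries, 2 of them strong, at 2.77 per Mb. That on chromosome 9 had 95 genes and 4 boundaries at 1.61 per Mb, 0 of them strong, which allows a share of up to 75% (3 counts of 4). The density of the chromosome 2 cluster, 1.58 per Mb, was near that of the chromosome 9 cluster. TSSs of other protein-coding genes were 1.38 and 1.21 per Mb in these clusters, against 9.33 per Mb in the class I cluster. The value of 1.38 includes the 3 models that RefSeq names as receptors. The share of receptor genes with a TSS in a boundary window was 3.52% in the chromosome 2 cluster, 4.21% (1.65 to 10.3) in the chromosome 9 cluster and 6.20% (3.18 to 11.8) in the class I cluster. These intervals overlapped, and none of the differences was tested.

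Receptor families were compared with the boundaries, since clusters of this kind are known to grow by local gene duplication. RefSeq synonyms gave a single MOR family for 213 members, in 43 families. Of the 33 families with at least 2 members in the cluster, 18 (111 genes) spanned no boundary. The other 15 (92 genes) did, 12 of them 1 boundary and 3 of them 2. MOR174 had 17 genes, all in the sixth interval from Olfr1155 to Olfr1177-ps. MOR233 had 17 genes as well, all in the seventh from Olfr1211 to Olfr1232. MOR264 and MOR177, with 15 and 12 genes, both lay in the fifth. MOR231, with 14 genes, was split by boundary 7, and MOR225 and MOR230, with 11 and 10 genes, by boundary 6. MOR232 spread over the last 3 intervals with 8 genes.

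Pairs of neighbours of 1 family were found with and without a boundary between them. Of the 8 neighbour pairs parted by a boundary 5 were of 1 family (62.5%, Wilson interval 30.6 to 86.3), as were 107 of 193 pairs with no boundary between (55.4%, 48.4 to 62.3). With 8 pairs the interval is wide, and the difference was not tested. In the other clusters the shares were 28 of 45 (62.2%, 47.6 to 74.9) and 476 of 750 (63.5%, 60.0 to 66.8). Boundaries parted 3.54% of neighbour pairs in the chromosome 2 cluster (1.80 to 6.83), against 5.41% in the other clusters. The median protein identity was 63.8% over the 8 parted pairs (range 45.5 to 95.9) and 69.0% over the 218 others (36.4 to 98.4). The median TSS gap was 36.6 kb for parted pairs and 18.8 kb for the others. It was 22.5 kb for the 162 others with a gap at least as wide as the narrowest parted one. A wide gap has more room for a boundary, so the widths alone show no preference, and none was tested.

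Related receptors mostly lay close together. The closest relative in the cluster lay in the same interval for 187 of 227 members (82.4%), with a median identity to it of 87.2%. All pairs within an interval had a median of 53.0% (3540 pairs), and pairs from different intervals 43.3% (22111 pairs). Of the 226 neighbour pairs 218 shared an interval, whatever their relation. The part of nearness along the chromosome in these values was not tested. The sharpest change in identity did not fall at a boundary. It lay between Olfr1177-ps of MOR174 and Olfr1178 of MOR225, inside the sixth interval, and was found, after the identities were seen, by comparing 218 ways of cutting the gene order into 2 stretches by mean identity within stretches less that across. The 142 genes before it had a median identity of 47.9% among themselves, and the 85 after it 56.6%, while pairs across it had 41.3% (quartiles 39.5 and 42.9) and at most 50.8%. No MOR family had members on both sides. The middle of the gap, 40.6 kb wide, was 351 kb from the nearest boundary, boundary 6. Pairs across a boundary had medians from 41.8%, at boundary 6, to 45.1%, at boundary 1. Those at boundary 6 and at boundary 5 (42.0%) were thus close to the 41.3% across this cut, and the differences were not tested.

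**Figure D4:**
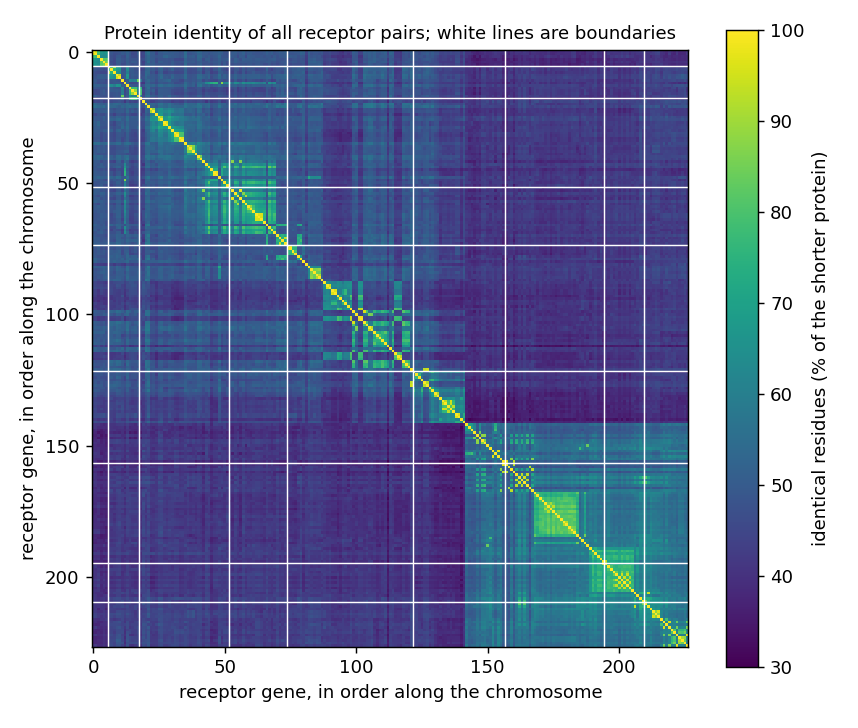
Protein identity (percent of the shorter protein) for all pairs of the 227 receptors, in order along the chromosome from Olfr987 to Olfr1274-ps; white lines mark the 8 boundaries. The step between the 142 genes before and the 85 genes after the gap from Olfr1177-ps to Olfr1178 lies between lines, not on one.

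CTCF is a DNA-binding protein that stops loop extrusion by cohesin and marks many domain boundaries, so matches to its core consensus were counted on both strands. The cluster held 7 matches, or 1.38 per Mb (exact Poisson interval 0.555 to 2.84), against 957 matches or 5.52 per Mb in the rest of chromosome 2. The chromosome 9 cluster had 0.403 and the class I cluster 4.15 per Mb. None lay in a boundary window of the cluster, 0 of 8 boundaries, which allows a share of up to 37.5% (3 counts of 8), against 23.9% of all boundaries. The weak boundary in Ptprj, outside the right edge, did hold one, in an intron and 2.42 kb from the midpoint. At boundaries 7 and 8 the nearest match was that one, 967 kb and 592 kb away. No letters of the consensus in a window says nothing of the protein, whose binding was not measured. GC content was 37.1% in the cluster and 42.2% in the rest of chromosome 2. It was 37.7% in the chromosome 9 cluster and 39.4% in the class I cluster. The part of GC content in the match rates was not tested.

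The 7 matches inside and the one in Ptprj are printed, as they are all the matches to this consensus from the first receptor gene through the right outer boundary. They are not all the candidate sites, as a looser form of the pattern gave 24.6 matches per Mb in the cluster. Each is given 5′ to 3′ on its own strand (GRCm38 reference, 6 bases on each side), named by its start on chromosome 2, with the consensus match in capitals.
85725950, forward strand: atcaggCCAGTAGATGGCagcatg
85745038, reverse strand: ctacatCCAGTAGAGGGCtaatat
86327427, reverse strand: gttgatCCACTAGGTGGCcttaac
87180857, reverse strand: gatgcaCCAGTAGAGGGCatcagc
87429702, forward strand: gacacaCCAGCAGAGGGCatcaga
88109109, forward strand: ctgtacCCAGCAGATGGCtgaaac
88356476, forward strand: taatgtCCACTAGGTGGCagaata
90474917, forward strand, in Ptprj: ctgtgtCCACTAGGGGGCagtagc

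Of the 7 inside the cluster, 4 were on the forward and 3 on the reverse strand. The first and the second stood near Olfr1009 and Olfr1012 in the second interval, on opposite strands. The match at 86327427 lay 30.1 kb from boundary 3 and overlapped the processed pseudogene Gm13719, and the other 6 were intergenic. The matches at 87180857 and 87429702 lay in the fifth interval, and the one at 87429702 was 0.573 kb from the TSS of Olfr1124. The match at 88356476 was the only one in the gap between Olfr1177-ps and Olfr1178, where receptor identity changed most. It lay 361 kb from the nearest boundary.

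Promoters of the members were compared with those of other genes for 3 motifs, each counted on both strands. They were CCCNNGGG, the core of sites of the Ebf factors, TAATTA, a core of homeodomain sites such as those of Lhx2, and TATAAA, the TATA box core. In windows from 250 bases before to 50 after the start of the GENCODE gene model, TAATTA occurred in 77 of 227 members (33.9%, Wilson interval 28.1 to 40.3). It occurred in 21.7% (19.2 to 24.5) of the other 907 receptor genes and in 5.22% of all 21755 protein-coding genes. TATAAA occurred in 111 members (48.9%, 42.5 to 55.4), in 29.5% (26.7 to 32.6) of other receptor genes and in 12.7% of all. CCCNNGGG occurred in 22 members (9.69%, 6.49 to 14.2), in 16.9% (14.6 to 19.4) of other receptor genes and in 15.9% of all. GC content of these windows was 33.9% in the cluster, 39.1% in other receptor genes and 55.2% in all, and its part in the shares was not tested.

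The RefSeq promoter table gave other shares, since its receptor models often begin further inside the gene, near the coding start. At Olfr998, Olfr1016 and Olfr1257 its start lay 1562, 2276 and 2391 bases inside the GENCODE model, so such windows may not hold promoters. The table held 183 windows for 182 of the members. Of these windows 25 had a start within 50 bases of the GENCODE start, and the median distance was 2599 bases. In these windows CCCNNGGG occurred in 3 of the cluster (1.64%, 0.559 to 4.71), in 3.31% (2.25 to 4.84) of 756 windows of other receptor genes and in 13.7% of all 32851 windows of the table. The intervals of the cluster and of other receptor genes overlapped here, while with GENCODE starts they did not. Other receptor genes lay below all promoters with RefSeq starts and slightly above them with GENCODE starts. TAATTA occurred in 24.6% of cluster windows, 17.1% of those of other receptor genes and 5.29% of all. TATAAA occurred in 55.7% of cluster windows, 37.8% of those of other receptor genes and 13.6% of all. The order of the members against all promoters was the same for each motif with either start, and the share of CCCNNGGG differed most between them.

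**Figure D5:**
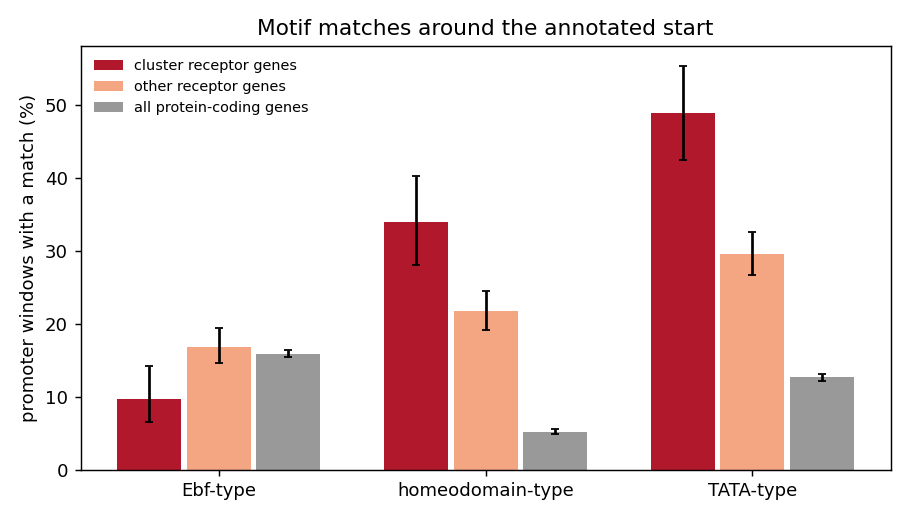
Share of promoter windows (percent, with 95% Wilson intervals) that hold the Ebf-type, homeodomain-type or TATA-type motif, around the GENCODE start of cluster receptor genes, other receptor genes and all protein-coding genes. The cluster has the highest shares for the homeodomain-type and TATA-type motifs, at 33.9% and 48.9%.

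Among the 8 members at boundaries, the 250 bases before the start held CCCNNGGG only in Olfr1055. They held TAATTA in Olfr1016, Olfr1055, Olfr1056 and Olfr1242, and TATAAA in none of the 8. Over all members the shares above were 9.69% for CCCNNGGG, 33.9% for TAATTA and 48.9% for TATAAA. Those shares came from longer windows that reach past the start, so the counts are not directly comparable, and no difference was tested. The pair at boundary 3 is printed because the TSSs of these genes, both of family MOR186 and on the reverse strand, lie on either side of the same weak boundary, which falls within Olfr1056. Capitals mark TAATTA in both and, in Olfr1055, CCCNNGGG as well. Their windows are chr2:86350285-86350534 and chr2:86362470-86362719, read on the reverse strand of GRCm38.
Olfr1055: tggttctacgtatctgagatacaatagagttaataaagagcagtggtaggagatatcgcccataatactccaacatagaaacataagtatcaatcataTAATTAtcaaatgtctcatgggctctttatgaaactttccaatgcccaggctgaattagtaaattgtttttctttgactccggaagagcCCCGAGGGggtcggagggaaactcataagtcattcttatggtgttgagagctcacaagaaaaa
Olfr1056: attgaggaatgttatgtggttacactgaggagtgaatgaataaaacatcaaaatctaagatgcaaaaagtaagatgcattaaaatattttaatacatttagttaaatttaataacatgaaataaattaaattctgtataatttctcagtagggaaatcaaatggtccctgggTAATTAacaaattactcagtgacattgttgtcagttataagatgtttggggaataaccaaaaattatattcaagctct

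The proteins of this pair shared 69.3% of their residues, and Olfr1055, at 346 residues, had the longest product of the cluster, where products ran from 301 residues with a median of 312. The matches are letters in a window and not shown to be sites.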

How the data were processed

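In situ Hi-C of 2 biological replicates was mapped to GRCm38 and combined into 1 contact matrix by the authors, per the series design text, and boundaries were called on that matrix. The deposited boundary list gives intervals of 5000 bp, a class and a strength, a score. Its scale and caller, like the aligner and filters, were not given in the sources used here. In the list, strength starts at 0.2 and the class changes at 0.5. Contact matrices, insulation and compartment tracks were not used here.

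Genes came from GENCODE M21 and names, MOR families and promoters from RefSeq (GRCm38.p6). The TSS was the 5′ end of the gene model, and genes were placed by it. The reference is not of the mice's strain. Proteins were translated from the annotated coding sequence and aligned globally (Biopython 1.88, BLOSUM62, gap penalties 11 and 1). Unique 32-base sequences were sampled every 250 bp. Receptor clusters were runs of at least 5 genes less than 500 kb apart. Shares have 95% Wilson intervals (scipy 1.17.1), and a count of 0 has the limit that 3 counts give. The joins were tested on simulated boundaries. Genes named were those at edges, at boundaries, at either end of each interval, non-receptor genes inside and the 3 nearest outside, and others were named after their values were seen. The members, lists and measures were chosen with earlier results of these data known. Depth is unknown.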

Additional observations from a re-analysis of the deposited data

How the results depend on the processing

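Of 23 alternatives, 13 left the value within its counting interval or within 1.5 times, and 0 turned a direction. Many of the values are single counts, medians or distances, which have no direction to turn. With strong boundaries only, the cluster held 1 boundary, the density ratio was 0.105, 0.881% of members had a TSS at a boundary, the right edge lay 274 kb from a boundary, and the median number of receptor genes per interval was 113.5 over 2 intervals. The share of members at a boundary was 0.441% with the boundary interval alone and 8.81% with 25 kb on each side, where all protein-coding genes had 3.45% and 25.0%. A looser form of the CTCF pattern, with more letters left free, gave 24.6 matches per Mb in the cluster against 58.8 in the rest of chromosome 2, and matched 4 of the 8 boundaries against 76.0% of all. With the GENCODE start CCCNNGGG was in 9.69% of member promoters. Counting the 3 models that RefSeq names as receptors, an alternative chosen after seeing the data, gave a share of 3.48%. These alternatives differ from the main settings in how each is built (fewer boundaries, another width, a shorter fixed core, another start). The causes of the moves were not tested. With both replicates combined before calling, neither could be left out. No paired analysis was possible because there is 1 group and 1 pooled list. The number of read pairs behind a boundary is unknown, so weak boundaries missed at this depth cannot be counted.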
